A study of Mus musculus with 24 samples.

Results

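The MLL and menin complex genes examined here are 10 genes, Kmt2a, Kmt2b, Kmt2c, Kmt2d, Men1, Psip1, Kdm6a, Ash2l, Wdr5 and Rbbp5, taken by symbol from the 26411 genes counted in each library. All 10 were found once, and all 10 passed the filter on low counts in both conditions. They were measured by RNA sequencing in 24 libraries of mouse neural stem and progenitor cells (NSPCs), with 4 libraries in each of 6 groups: Kat6a+/+, Kat6a+/- and Kat6a-/- cells, each either proliferating or after 3 days of differentiation. KAT6A (MOZ) is a histone lysine acetyltransferase, and the mutant allele lacks exons of its gene, which introduces a premature stop in the catalytic domain. The cells came from the dorsal telencephalon of single embryos at E12.5, from intercrosses of Kat6a+/- mice on a C57BL/6 background. All groups had been grown under neurosphere conditions with FGF2 and EGF and frozen before use. The paper reports that growth form differed with genotype. Kat6a+/- colonies were smaller and tended to attach, and Kat6a-/- cells mostly attached to the plastic with few floating colonies. The part of this in the results was not tested. The differentiating groups were then plated on poly-L-ornithine and laminin in serum without the growth factors. The null allele was present in every cell of the embryo from fertilization, so a level measured in culture cannot separate an effect in these cells from one earlier in the embryo. RNA was prepared with a different kit in the differentiating cells, so the kit and the condition cannot be told apart.

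MLL proteins are histone methyltransferases that place methyl groups on lysine 4 of histone H3, a mark of active promoters and enhancers. Each works with a shared core of WDR5, RBBP5, ASH2L and DPY30, which the enzyme needs for full activity. MLL1 (Kmt2a) and MLL2 (Kmt2b) also bind menin (Men1), and menin together with LEDGF (Psip1) tethers MLL1 to chromatin at Hox, Meis and other developmental genes. MLL3 (Kmt2c) and MLL4 (Kmt2d) act mainly at enhancers, in complexes that hold the H3K27 demethylase UTX (Kdm6a). KAT6A and MLL1 are known to act on some of the same target genes in blood cells, and the MLL1 gene is a frequent site of translocation in leukaemia.

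Library totals ranged from 7826532 to 40837428 counts, and each of the 10 genes had between 358 and 12551 counts per library. The 8 neural stem and progenitor markers each reached 1 CPM (counts scaled to each library's total) in at least 1 library of every group. Their sum was 7824 to 8685 CPM in the proliferating Kat6a+/+ libraries. Oligodendrocyte lineage markers summed to 2290 to 2730 CPM there and neuron markers to 815 to 1051 CPM. A level above 1 CPM therefore does not single out NSPCs. Blood markers summed to at most 1.01 CPM in any library, and the sum of 5 microglia markers reached 8.25 CPM in proliferating Kat6a-/- cells, with 4 of the 5 under 1 CPM and Cx3cr1 at 0. The count of Kat6a reads is no check on genotype, because the mutant transcript can still be counted outside the deletion. Relative to Kat6a+/+, the Kat6a log2 fold-change in Kat6a-/- NSPCs was -0.13 in proliferating cells (limma FDR = 0.1005) and -0.69 in differentiating cells (limma FDR = 3.33e-05). Y-linked transcripts marked 3 of the 4 Kat6a+/+ libraries but 1 of the 4 Kat6a+/- and 1 of the 4 Kat6a-/- libraries in each condition, so sex was not balanced between genotypes. Of the 6 embryo labels present in both conditions, 1 went against itself: replicate 1 of the Kat6a+/+ group carried Xist in the proliferating library and Y-linked transcripts in the differentiating library. The reverse was seen in replicate 2 of Kat6a+/+, low in Xist in the proliferating and high in the differentiating library, whose litter labels differ only in the order of their digits. Y-linked transcripts were at 220 CPM in that proliferating and at 0.109 CPM in that differentiating library. As deposited, those 2 libraries thus differ in sex and do not match as 1 embryo. Whether libraries of replicates 1 and 2 were exchanged in 1 condition was not tested, and all were kept as labelled. Values without replicate 1 of Kat6a+/+ are given beside the member calls vs. Kat6a+/+ and the effect of condition.

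The 10 genes differed in level. Per length, Psip1 was the most abundant in proliferating Kat6a+/+ NSPCs at 79.1 ± 6.55 FPKM (CPM per kilobase of transcript; SD, n = 4). Men1 followed at 41.8 ± 1.53, Wdr5 at 39.02 ± 1.15 and Ash2l at 37.2 ± 0.642 FPKM, and the ranges of Men1 and Wdr5 overlapped. The methyltransferase genes were lower: 20.1 ± 1.43 FPKM for Kmt2b, 13.1 ± 2.38 for Kmt2a, 9.95 ± 1.302 for Kmt2d and 9.64 ± 1.24 for Kmt2c. Rbbp5 lay between them at 17.3 ± 0.456 FPKM and Kdm6a was last at 8.68 ± 2.32 FPKM. Kmt2a, Kmt2d and Kmt2c each overlapped the next gene in that order. In differentiating Kat6a+/+ cells Psip1 again led at 49.3 ± 2.31 FPKM and Kdm6a was again last at 8.28 ± 1.65 FPKM. Kmt2c, Rbbp5, Kmt2a and Kmt2d lay between 10.1 and 10.7 FPKM there, each overlapping its neighbour.

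**Figure D1:**
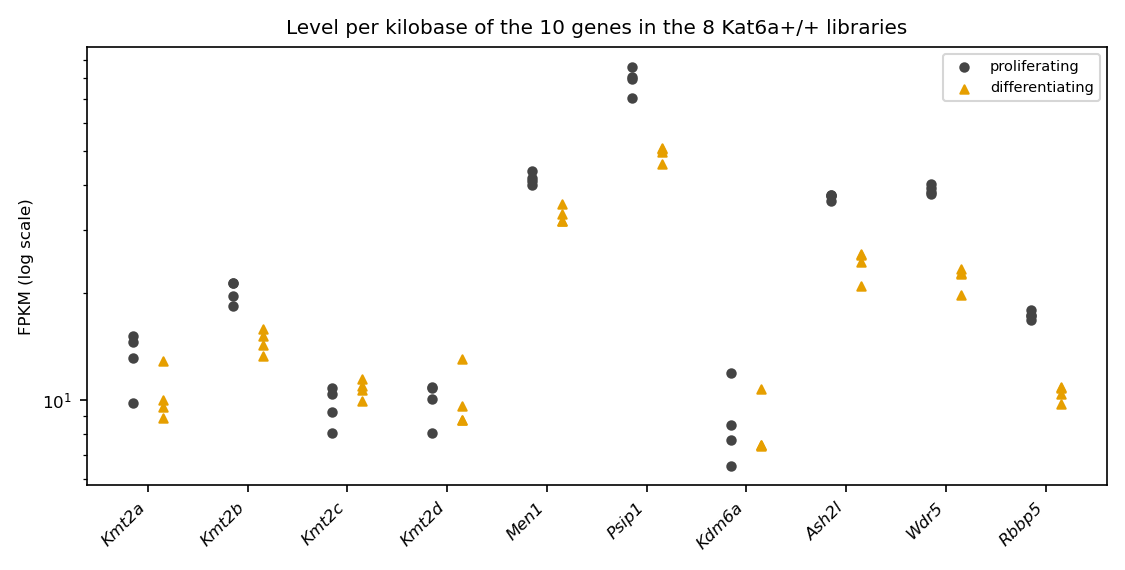
Level per kilobase (FPKM, log axis) of each of the 10 genes in the 8 Kat6a+/+ libraries, with circles for proliferating and triangles for differentiating NSPCs. Psip1 lay highest in both conditions, and the points of Kmt2a, Kmt2c, Kmt2d and Kdm6a were intermingled near 10 FPKM.

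Loss of both Kat6a copies went with lower levels of some of these genes and with higher levels of none. In proliferating Kat6a-/- NSPCs, 2 of the 10 fell vs. Kat6a+/+, Men1 and Wdr5. Over all 12276 genes tested the same fit called 30% changed and 13.8% lower, so a count of 2 is close to the background. In differentiating Kat6a-/- NSPCs, 5 of the 10 fell: Kmt2c, Psip1, Men1, Ash2l and Wdr5. There the background was 54.4% of 13339 genes changed and 27.7% lower. The median log2 fold-change of the 10 genes was -0.12 in proliferating and -0.20 in differentiating cells, against -0.0045 and -0.016 over all genes tested. Kat6a-/- and Kat6a+/+ libraries did not overlap for Men1 and Wdr5 in proliferating cells, or for Kmt2c, Men1, Psip1 and Wdr5 in differentiating cells. Over all genes tested, 31.3% and 26.9% showed no overlap between Kat6a-/- and Kat6a+/+ libraries in the respective condition. In bulk RNA, fewer cells of a type and less RNA per cell cannot be told apart.

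**Figure D2:**
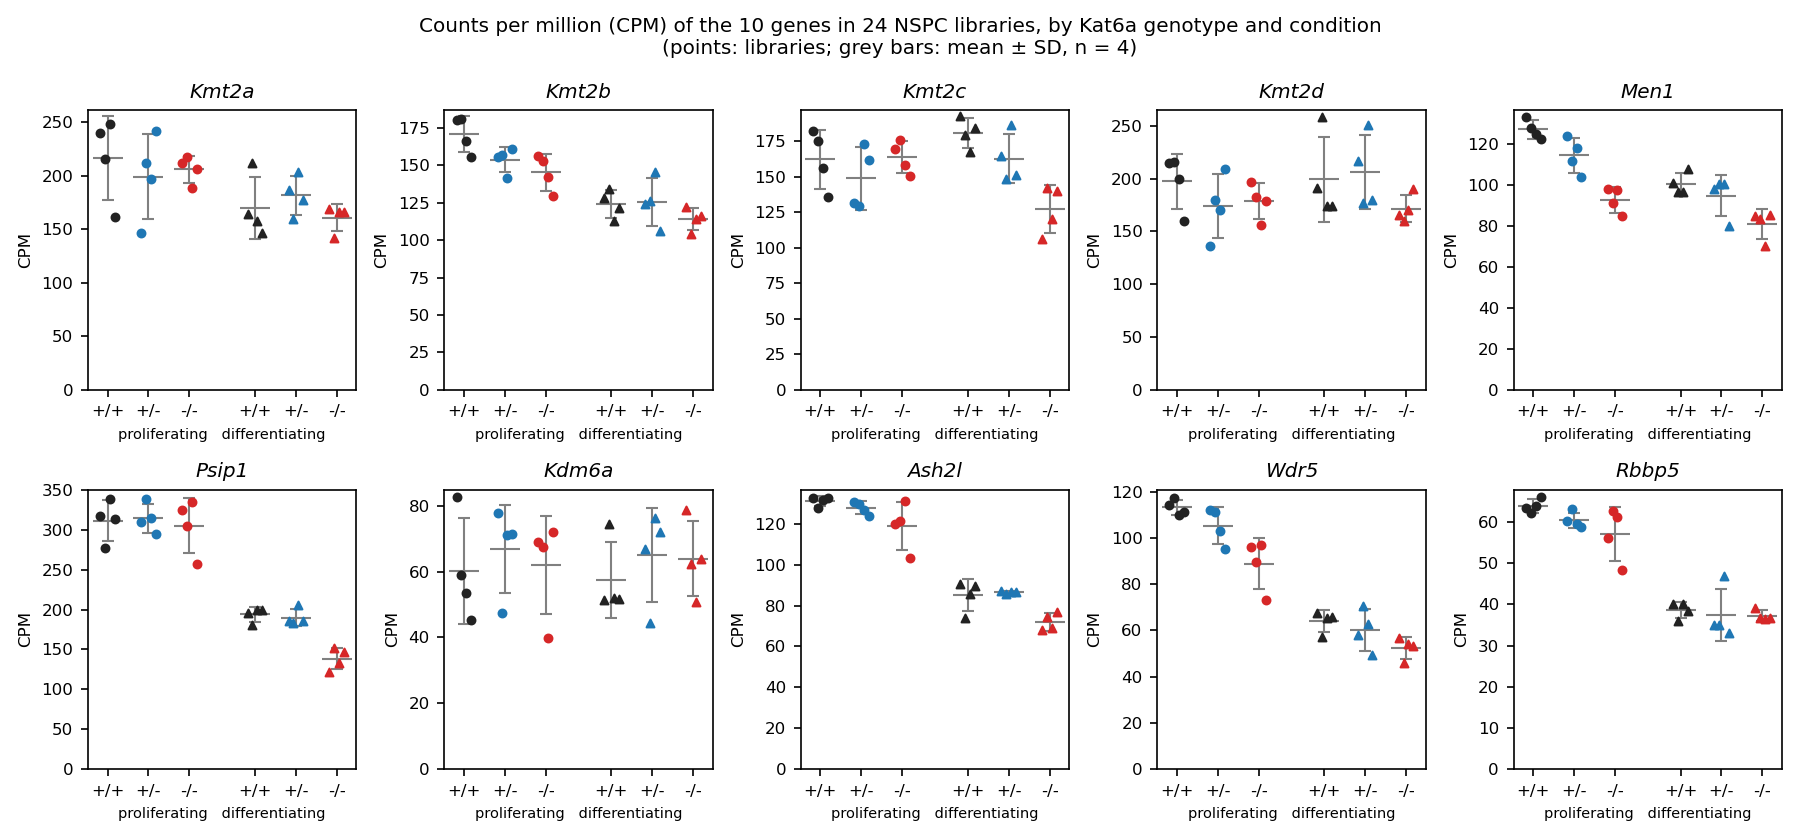
CPM of the 10 genes in each of the 24 libraries, by Kat6a genotype and condition, with the mean ± SD of 4 libraries in grey. All 4 Kat6a-/- libraries lay below all 4 Kat6a+/+ libraries for Men1 and Wdr5 in both conditions, and for Kmt2c and Psip1 in differentiating cells.

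Other features of the cultures moved with genotype. Of the 8 neural stem and progenitor markers, 2 were called higher and 3 lower in proliferating Kat6a-/- vs. Kat6a+/+ cells. In differentiating cells 3 were called higher and 4 lower. Their sums there were 7336 to 9325 CPM in Kat6a+/+ and 9452 to 13721 CPM in Kat6a-/- libraries. The 6 cycling cell markers summed to 2454 to 2803 CPM in proliferating Kat6a+/+ and 1413 to 2527 CPM in proliferating Kat6a-/- libraries, and 2 of the 6 were called lower. In differentiating cells the sums were 571 to 949.6 CPM in Kat6a+/+, 575 to 963 CPM in Kat6a+/- and 89.2 to 227 CPM in Kat6a-/- libraries, and all 6 were called lower. The 6 mesenchymal and meningeal markers summed to 11.7 to 26.3 CPM in differentiating Kat6a+/+ and 20.4 to 193 CPM in Kat6a-/- libraries, with Col3a1, Dcn and Lum under 1 CPM in every group. The 3 markers of this list that were tested there were all called higher. The 5 endothelial markers summed to 46.4 to 72.9 CPM in differentiating Kat6a+/+ and 10.6 to 36.8 CPM in Kat6a-/- libraries. The 1 of them tested there was called lower, and Pecam1, Cldn5 and Cdh5 were under 1 CPM in every group. The 6 astrocyte markers summed to 191 to 226 CPM in proliferating Kat6a+/+ and 324 to 429 CPM in Kat6a-/- libraries, with 3 of 5 tested called higher. In differentiating cells they summed to 949 to 1604 CPM in Kat6a+/+ and 715 to 4946 CPM in Kat6a-/-, with 1 of 6 called higher and 2 lower. The 6 oligodendrocyte lineage markers summed to 1185 to 1396 CPM in differentiating Kat6a+/+ and 649 to 1189.5 CPM in Kat6a-/- libraries, with 4 of 5 tested called lower and 1 higher. Neuron markers summed to 517 to 669 CPM and 459 to 770 CPM there, with 3 of 6 called lower and 1 higher. In proliferating cells 1 of 5 oligodendrocyte lineage markers was called higher, and of 5 neuron markers 1 was called higher and 2 lower. Their part in the results was not tested.

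Men1, the gene of the scaffold protein menin, fell in Kat6a-/- cells in both conditions. It lies at chr19:6385009-6390921 on the plus strand (GRCm39, GENCODE vM39). In proliferating cells it measured 133, 128, 125 and 122 CPM (Kat6a+/+), 124, 112, 118 and 104 CPM (Kat6a+/-) and 98.0, 91.0, 97.5 and 84.6 CPM (Kat6a-/-). The highest Kat6a-/- library was below the lowest Kat6a+/- library, and the Kat6a+/- libraries reached into the Kat6a+/+ range. Means were 127 ± 4.67, 114 ± 8.63 and 92.8 ± 6.34 CPM (SD, n = 4). Relative to Kat6a+/+, Men1 fell by 0.40 on the log2 scale in Kat6a-/- cells (SE 0.0620, limma FDR = 0.000578). It fell by 0.28 vs. Kat6a+/- (SE 0.0599, limma FDR = 0.0101). Without the Kat6a+/+ library whose embryo label was in doubt the log2 fold-change was -0.39 (limma FDR = 0.00334). All 22 alternative fits of the proliferating libraries called Men1 lower in Kat6a-/- vs. Kat6a+/+, with log2 fold-changes from -0.42 to -0.35.

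In differentiating cells Men1 measured 101, 96.6, 96.6 and 108 CPM (Kat6a+/+), 98.0, 100.4, 101 and 80.0 CPM (Kat6a+/-) and 84.6, 83.6, 70.1 and 85.4 CPM (Kat6a-/-). Replicate 4 of Kat6a+/- and replicate 3 of Kat6a-/- were the low libraries of their groups, and the Kat6a+/- and Kat6a-/- ranges overlapped. Men1 fell by 0.42 on the log2 scale vs. Kat6a+/+ (SE 0.0736, limma FDR = 0.000456) and by 0.35 vs. Kat6a+/- (SE 0.0865, limma FDR = 0.00837). Within the 2 litters that held both genotypes the log2 ratio of Kat6a-/- to Kat6a+/+ was -0.20 and -0.62 in differentiating and -0.40 and -0.33 in proliferating cells. Quality weights in this fit gave replicate 3 of Kat6a-/- 68.98% of the total for the 4 Kat6a-/- libraries, and replicate 2 got 4.22%. Without replicate 3 the Men1 log2 fold-change was -0.24 (limma FDR = 0.278), and without replicate 1 it was -0.37 (limma FDR = 0.0883). With litter as a fixed term it was -0.42 (limma FDR = 0.0792). Replicate 1 of Kat6a+/+, the library with the doubtful embryo label, held 42.0% of the weight of its group. Without it the Men1 log2 fold-change was -0.41 (limma FDR = 0.00397). The call vs. Kat6a+/- was made in 4 of 9 other settings and lost without replicate 1 (-0.31, limma FDR = 0.285) or 3 (-0.19, limma FDR = 0.614) of Kat6a-/-.

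Men1 and Wdr5 were the members called lower in Kat6a-/- cells in both conditions, so their promoters are shown, as the 250 bases before the outermost RefSeq start. The sequences come from RefSeq promoters tabulated on GRCm38.p6, which held 7 of the 10 genes, and were placed by exact match on GRCm39. Men1 has 3 listed starts and its window is chr19:6384759-6385008 and that of Wdr5 is chr2:27404909-27405158, both on the plus strand. Capitals mark matches, on either strand, to any of 8 motifs searched: GGGCGG (the GC box), CCAAT (bound by NF-Y), TATAAA (the TATA box), CACGTG (the E-box), GCGCATGC (an NRF1 site), CCGGAAGT (an ETS site), and both TTTCCCGC and also TTTGGCGC (E2F sites).
Men1: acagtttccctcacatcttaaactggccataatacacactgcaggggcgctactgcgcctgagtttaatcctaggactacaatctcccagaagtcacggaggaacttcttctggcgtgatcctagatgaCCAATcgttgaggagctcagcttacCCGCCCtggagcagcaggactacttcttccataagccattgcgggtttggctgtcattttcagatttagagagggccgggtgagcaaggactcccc
Wdr5: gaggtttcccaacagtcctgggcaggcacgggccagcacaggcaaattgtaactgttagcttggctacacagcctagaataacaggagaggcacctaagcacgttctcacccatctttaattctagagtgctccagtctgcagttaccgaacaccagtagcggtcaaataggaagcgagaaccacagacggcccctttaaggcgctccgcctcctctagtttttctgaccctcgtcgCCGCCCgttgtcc
The Men1 window held CCAAT starting 121 bases and the GGGCGG motif, on the minus strand, starting 96 bases before the start. In the Wdr5 window the GGGCGG motif lay on the minus strand, 13 bases before the start. Of 32851 promoter windows in the table, 32.7% held GGGCGG and 33.8% held CCAAT, so these matches are common ones. The TATA box was in 12.4% and the E-box in 6.0% of the windows, and each of the longer motifs in 0.4% to 2.9%. The Men1 window held 8 CpG dinucleotides and the Wdr5 window 12, against a median of 6 over all windows. The Kmt2c window held 48 and the Kmt2a window 29, more than 99.8% and 93.2% of all windows. TATAAA, the E-box and the 4 longer motifs were in neither window.

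Wdr5 encodes the WD-repeat protein that holds the MLL core together and reads the histone H3 tail, and its gene lies at chr2:27405161-27426560 on the plus strand. In proliferating cells it measured 114, 117, 109.8 and 111 CPM (Kat6a+/+), 112, 111, 103 and 95.2 CPM (Kat6a+/-) and 96.1, 89.7, 96.7 and 73.0 CPM (Kat6a-/-). Replicate 4 was the low Kat6a-/- library, and 2 of the 4 Kat6a+/- libraries lay below the Kat6a+/+ range. Wdr5 fell by 0.30 on the log2 scale vs. Kat6a+/+ (SE 0.0767, limma FDR = 0.0114) and by 0.24 vs. Kat6a+/- (SE 0.0741, limma FDR = 0.0481). The difference from Kat6a+/- was lost in 10 of the 12 fits that left out a library, and the difference from Kat6a+/+ in none of them. With litter as a fixed term the log2 fold-change vs. Kat6a+/+ was -0.23 (limma FDR = 0.0629). Without replicate 1 of Kat6a+/+ it was -0.30 (limma FDR = 0.0298).

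In differentiating cells Wdr5 measured 67.6, 57.0, 65.5 and 65.9 CPM (Kat6a+/+), 58.0, 70.7, 62.7 and 49.1 CPM (Kat6a+/-) and 56.7, 45.8, 54.2 and 53.3 CPM (Kat6a-/-). The Kat6a+/- libraries overlapped both other groups, and the highest Kat6a-/- library was just below the lowest Kat6a+/+ library. Wdr5 fell by 0.27 on the log2 scale vs. Kat6a+/+ (SE 0.0742, limma FDR = 0.00796). This call was the least stable of the 5: it was lost in 5 of 9 other settings, among them edgeR's quasi-likelihood test (-0.28, FDR = 0.0851) and a term for Xist (-0.17, limma FDR = 0.191). It was also lost without replicate 1 of Kat6a+/+, the library with the doubtful embryo label (-0.23, limma FDR = 0.0575), and without replicate 1 (-0.39, limma FDR = 0.118) or 3 (-0.39, limma FDR = 0.171) of Kat6a-/-. Against Kat6a+/- the log2 fold-change was -0.11 (95% CI -0.30 to 0.08, limma FDR = 0.339).

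Ash2l, the core subunit that with RBBP5 stimulates the methyltransferase, was called lower in differentiating Kat6a-/- cells. It measured 90.7, 73.8, 85.9 and 89.8 CPM (Kat6a+/+), 87.0, 85.5, 86.6 and 86.6 CPM (Kat6a+/-) and 68.0, 74.3, 69.1 and 76.9 CPM (Kat6a-/-). Replicate 2 of Kat6a+/+ lay within the Kat6a-/- range, while the Kat6a+/- and Kat6a-/- ranges were apart. Ash2l fell by 0.32 on the log2 scale vs. Kat6a+/+ (SE 0.0575, limma FDR = 0.000589) and by 0.30 vs. Kat6a+/- (SE 0.0676, limma FDR = 0.00497). Without replicate 1 of Kat6a-/- the log2 fold-change vs. Kat6a+/+ was -0.27 (limma FDR = 0.139), without replicate 3 it was -0.26 (limma FDR = 0.213), and with a fixed litter term it was -0.34 (limma FDR = 0.0617). The Ash2l log2 fold-change vs. Kat6a+/+ was -0.26 without replicate 1 of Kat6a+/+ (limma FDR = 0.00867). The call vs. Kat6a+/- was made in 7 of 9 other settings, was lost with a fixed litter term and with a term for Xist, and was lost without replicate 1 (-0.28, limma FDR = 0.275) or 3 (-0.26, limma FDR = 0.381) of Kat6a-/-. In proliferating cells Ash2l ranged over 128 to 133 CPM in Kat6a+/+ and 103 to 131 CPM in Kat6a-/-, with a log2 fold-change of -0.10 (95% CI -0.24 to 0.03, limma FDR = 0.217). Over all GENCODE vM39 exons, Ash2l shares 3451 bases with Star on the opposite strand, a gene with 66 to 358 counts per library. The counts used a RefSeq annotation, and the strand setting of the counting is not given in the sources used here.

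Rbbp5, the core subunit that bridges ASH2L and WDR5, was not called between genotypes. In proliferating cells it ranged over 62.0 to 66.1 CPM in Kat6a+/+ and 48.4 to 62.6 CPM in Kat6a-/-, with 3 of the 4 Kat6a-/- libraries below the Kat6a+/+ range. The log2 fold-change was -0.13 (95% CI -0.29 to 0.02, limma FDR = 0.172) in proliferating and -0.09 (95% CI -0.26 to 0.08, limma FDR = 0.334) in differentiating cells. The differentiating ranges were 35.8 to 40.2 CPM in Kat6a+/+ and 36.4 to 39.2 CPM in Kat6a-/-.

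Psip1 encodes LEDGF, the chromatin reader that joins menin and MLL1 to methylated nucleosomes, and its gene lies at chr4:83341129-83404904 on the minus strand. In differentiating cells it measured 196, 181, 199.8 and 200.1 CPM (Kat6a+/+), 185, 183, 206 and 185 CPM (Kat6a+/-) and 122, 151, 133 and 147 CPM (Kat6a-/-). All 4 Kat6a-/- libraries were below all 8 of the others. Means were 194 ± 9.12, 189.9 ± 10.5 and 138 ± 13.3 CPM (SD, n = 4). Psip1 fell by 0.56 on the log2 scale vs. Kat6a+/+ (SE 0.0539, limma FDR = 8.44e-06) and by 0.49 vs. Kat6a+/- (SE 0.0634, limma FDR = 0.000235). All 21 alternative fits of the differentiating libraries called it lower vs. Kat6a+/+, the 2 without replicate 1 or 3 of Kat6a-/- included, with log2 fold-changes from -0.71 to -0.46. The Psip1 log2 fold-change vs. Kat6a+/+ was -0.55 without replicate 1 of Kat6a+/+ (limma FDR = 0.000170). The call vs. Kat6a+/- was made in 8 of 9 other settings, was lost with a fixed litter term, and was lost without replicate 1 (-0.41, limma FDR = 0.0571) or 3 (-0.43, limma FDR = 0.0941) of Kat6a-/-. The log2 ratio within the 2 litters that held both genotypes was -0.55 and -0.59.

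In proliferating cells Psip1 measured 317, 277, 339 and 313 CPM (Kat6a+/+), 310.4, 338, 315 and 294 CPM (Kat6a+/-) and 325, 305, 335 and 257 CPM (Kat6a-/-). Replicate 4 of Kat6a-/- was low and the others lay within the Kat6a+/+ range. The log2 fold-change was -0.01 (95% CI -0.17 to 0.15, limma FDR = 0.947). The difference between the Kat6a-/- effects in the 2 conditions was -0.46 (SE 0.120, limma FDR = 0.0141), larger in size in differentiating cells. Without the 2 libraries of the doubtful embryo label it was -0.49 (limma FDR = 0.0346), where 905 of 13666 genes were called. Of the 13586 genes tested for this interaction 13.9% were called, 7.58% in the negative direction, and 2 of the 10 members were among them, Psip1 and Kmt2c. Psip1 exons share 6207 bases with Snapc3 on the opposite strand, which had 174 to 1096 counts per library. This overlap was taken over all GENCODE vM39 exons and exceeds the 3938 bases of Psip1 in the counts, so the overlap within the counted bases is not known.

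Kmt2c, the gene of the enhancer methyltransferase MLL3, was the other member whose Kat6a-/- effect differed between conditions. Its gene lies at chr5:25476796-25703810 on the minus strand. In differentiating cells it measured 192, 179, 167 and 184 CPM (Kat6a+/+), 165, 148, 186 and 151 CPM (Kat6a+/-) and 106, 142, 120.5 and 140.1 CPM (Kat6a-/-). The Kat6a-/- libraries lay below all others, and 3 of the 4 Kat6a+/- libraries lay below the Kat6a+/+ range. Kmt2c fell by 0.58 on the log2 scale vs. Kat6a+/+ (SE 0.0760, limma FDR = 6.08e-05) and by 0.43 vs. Kat6a+/- (SE 0.0894, limma FDR = 0.00331). Without replicate 1 of Kat6a-/- the log2 fold-change vs. Kat6a+/+ was -0.46 (limma FDR = 0.0612) and without replicate 3 it was -0.47 (limma FDR = 0.0881). The 9 other settings each called it. The Kmt2c log2 fold-change vs. Kat6a+/+ was -0.53 without replicate 1 of Kat6a+/+ (limma FDR = 0.000673). The call vs. Kat6a+/- was made in 7 of 9 other settings, was lost with a fixed litter term and with a term for Xist, and was lost without replicate 1 (-0.33, limma FDR = 0.318) or 3 (-0.35, limma FDR = 0.383) of Kat6a-/-. In proliferating cells Kmt2c ranged over 135 to 182 CPM in Kat6a+/+ and 150.3 to 176 CPM in Kat6a-/-, with a log2 fold-change of 0.05 (95% CI -0.18 to 0.29, limma FDR = 0.747). The difference between the effects in the 2 conditions was -0.53 (SE 0.160, limma FDR = 0.0284), which did not pass with litter as a fixed term (-0.58, limma FDR = 0.0581). Without the 2 libraries of the doubtful embryo label it was -0.59 (limma FDR = 0.0465).

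Kmt2d, which encodes the related enhancer methyltransferase MLL4, was not called vs. Kat6a+/+ in either condition. It ranged over 160.1 to 215 CPM in proliferating Kat6a+/+ and 156 to 197 CPM in Kat6a-/- libraries, with a log2 fold-change of -0.14 (95% CI -0.39 to 0.11, limma FDR = 0.380). In differentiating cells the ranges were 174 to 258 and 160.1 to 190.1 CPM, with a log2 fold-change of -0.13 (95% CI -0.36 to 0.09, limma FDR = 0.293). There 3 of the 4 Kat6a-/- libraries lay below the Kat6a+/+ range. Against differentiating Kat6a+/- the log2 fold-change was -0.29 (95% CI -0.55 to -0.03, limma FDR = 0.0784). That difference was called in 4 of 12 fits that left out a library and in 1 of 9 other settings.

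Kdm6a, the H3K27 demethylase of the MLL3 and MLL4 complexes, lies on the X chromosome and is known to escape X inactivation. In proliferating cells it measured 82.8, 59.1, 53.5 and 45.4 CPM (Kat6a+/+), 77.7, 47.4, 71.1 and 71.5 CPM (Kat6a+/-) and 68.9, 67.6, 40.0 and 72.1 CPM (Kat6a-/-). In differentiating cells it measured 51.5, 74.6, 51.9 and 51.7 CPM (Kat6a+/+), 67.0, 44.4, 76.4 and 72.2 CPM (Kat6a+/-) and 78.8, 62.3, 50.8 and 63.9 CPM (Kat6a-/-). Each group held libraries at both a high and a low level. The split followed Xist, the RNA made from the inactive X: the 7 libraries with Xist above 10 CPM had 67.6 to 82.8 CPM of Kdm6a in proliferating cells and the 5 others 40.0 to 59.1 CPM. In differentiating cells the ranges were 62.3 to 78.8 CPM and 44.4 to 51.9 CPM. Uty, the Y-linked relative of Kdm6a, measured 27.2 to 37.0 CPM in the Xist-low and at most 0.543 CPM in the Xist-high libraries. These ranges are a description, since the libraries were divided by a measured transcript. The log2 fold-change of Kdm6a in Kat6a-/- vs. Kat6a+/+ was 0.07 (95% CI -0.36 to 0.50, limma FDR = 0.817) in proliferating and 0.08 (95% CI -0.23 to 0.39, limma FDR = 0.663) in differentiating cells. With a term for Xist it was -0.23 (limma FDR = 0.0756) and -0.16 (limma FDR = 0.185), so its sign turned in both conditions while neither value passed the test.

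**Figure D3:**
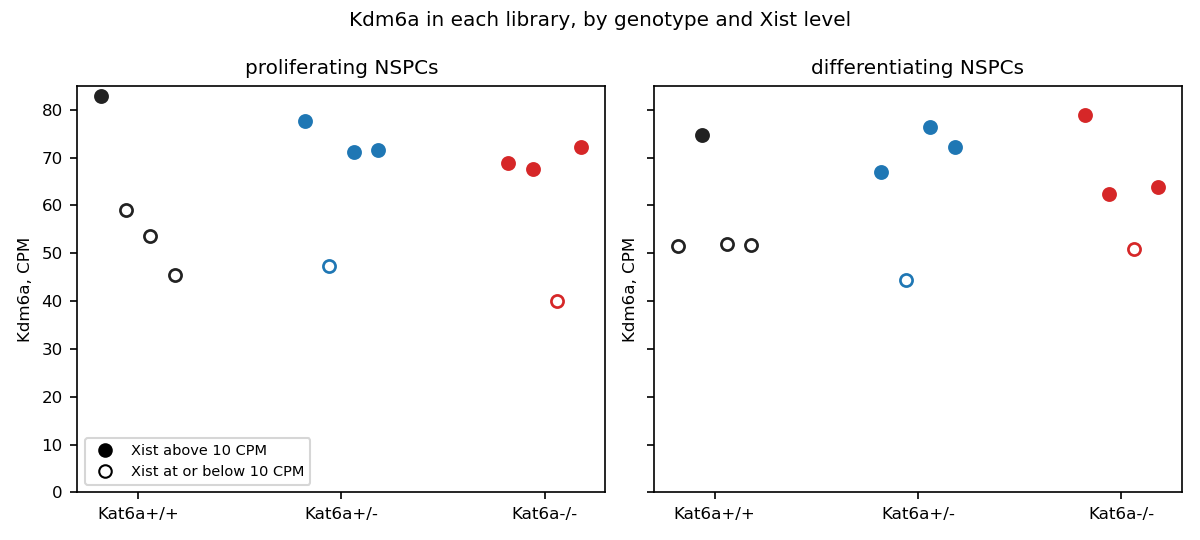
Kdm6a in CPM in each library by Kat6a genotype, with filled points for libraries with Xist above 10 CPM and open points for the others. In both conditions every filled point lay above every open point, whatever the genotype.

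Kmt2a, the gene of MLL1 itself, was not called between genotypes. Its gene lies at chr9:44714652-44792621 on the minus strand. In proliferating cells it measured 239.8, 215, 249 and 162 CPM (Kat6a+/+), 146, 212, 197 and 241 CPM (Kat6a+/-) and 212, 218, 188 and 206 CPM (Kat6a-/-). In differentiating cells it measured 164, 212, 157 and 146 CPM (Kat6a+/+), 187, 159, 203 and 177 CPM (Kat6a+/-) and 169, 142, 167 and 166 CPM (Kat6a-/-). The 3 genotypes overlapped in both conditions, and the Kat6a-/- libraries were the closest together in each. The log2 fold-change in Kat6a-/- vs. Kat6a+/+ was -0.07 (95% CI -0.37 to 0.22, limma FDR = 0.706) in proliferating and 0.03 (95% CI -0.15 to 0.20, limma FDR = 0.816) in differentiating cells. Kmt2b, which encodes MLL2, measured 180.4, 181, 166 and 156 CPM in proliferating Kat6a+/+ and 156, 153, 142 and 129 CPM in Kat6a-/- libraries, of which 3 lay below the Kat6a+/+ range. Its log2 fold-change was -0.19 (95% CI -0.34 to -0.03, limma FDR = 0.0664) in proliferating cells, where 5 of 22 alternative fits called it, and -0.08 (95% CI -0.24 to 0.08, limma FDR = 0.354) in differentiating cells.

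**Figure D4:**
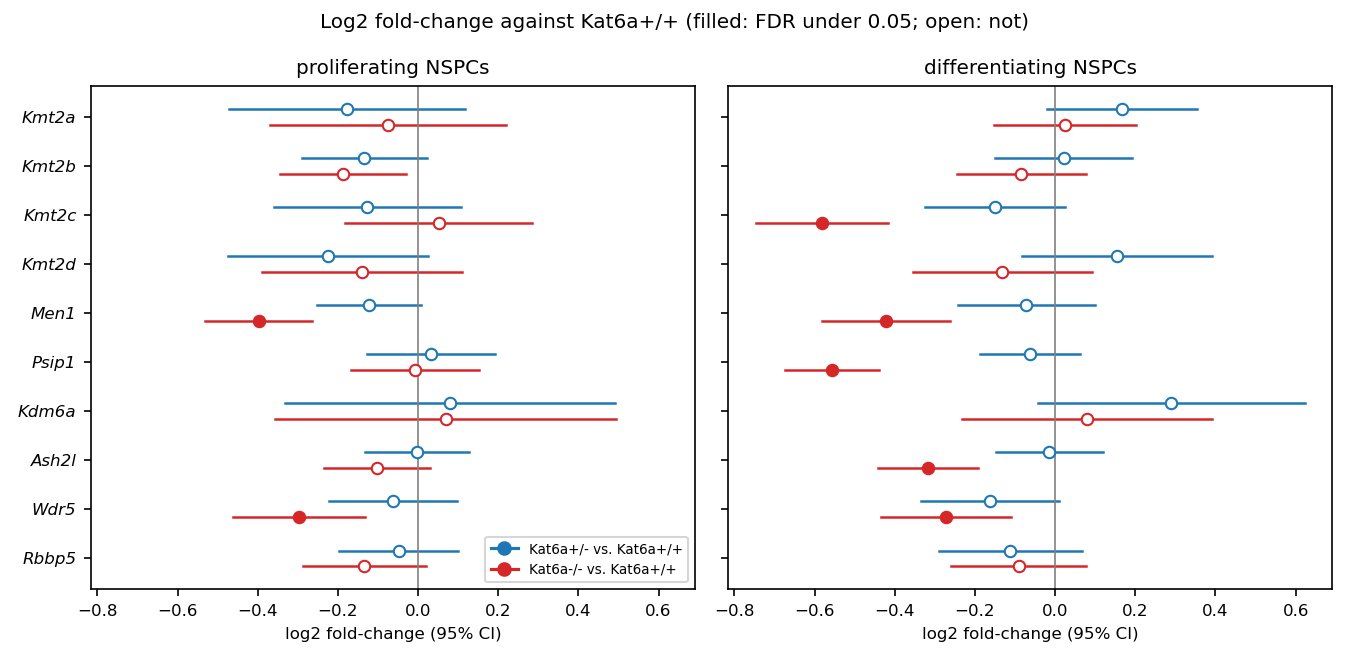
Log2 fold-change with its 95% confidence interval for each of the 10 genes, in Kat6a+/- (blue) and Kat6a-/- (red) vs. Kat6a+/+ NSPCs. Filled points passed an FDR of 0.05 in limma: 2 genes in proliferating and 5 in differentiating Kat6a-/- cells, and no gene in Kat6a+/- cells.

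Loss of 1 Kat6a copy gave no call among the 10 genes in either condition, with a background of 0% of all genes in limma. At an unadjusted p under 0.05 limma counted 912 of 12276 genes in proliferating and 1926 of 13339 in differentiating Kat6a+/- cells, and DESeq2 called 28 and 8 genes at an FDR under 0.05, none of them members. Men1 had a log2 fold-change of -0.12 (95% CI -0.25 to 0.01, limma FDR = 0.678) in proliferating Kat6a+/- cells. The Wdr5 value in differentiating Kat6a+/- cells was -0.16 (95% CI -0.33 to 0.01, limma FDR = 0.370). Psip1 had the narrow interval of -0.19 to 0.06 in differentiating Kat6a+/- cells, which does not reach the size of its change in Kat6a-/- cells. Kdm6a had the largest of the 20 member values, 0.29 in differentiating cells (95% CI -0.04 to 0.62), where 3 of 4 Kat6a+/- and 1 of 4 Kat6a+/+ libraries were Xist-high. Comparing Kat6a-/- with Kat6a+/- directly, 2 members were lower in proliferating cells against a background of 14.8% of genes changed and 6.3% lower. In differentiating cells 4 members were lower, Kmt2c, Men1, Psip1 and Ash2l, against 37.5% changed and 18.5% lower. The comparisons share libraries, so they are not independent of each other.

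Most of these transcripts were lower in differentiating than in proliferating Kat6a+/+ cells, a step at which the RNA kit also differed. Of the 10 genes 7 fell between proliferating and differentiating Kat6a+/+ NSPCs and none rose, where 73% of 13586 genes changed and 36.3% were lower. The median over the 10 was -0.40 on the log2 scale, against 0.017 over all genes. Wdr5 fell by 0.83 (SE 0.0998, limma FDR = 2.25e-07), Rbbp5 by 0.72 (SE 0.0866, limma FDR = 1.91e-07) and Ash2l by 0.63 on the log2 scale (limma FDR = 7.01e-08, SE 0.0700), so all 3 core subunits measured here were lower. Psip1 fell by 0.68 (SE 0.0859), Kmt2b by 0.46 (SE 0.0877) and Men1 by 0.34 on the log2 scale (SE 0.0812). Kmt2a fell by 0.34 on the log2 scale (limma FDR = 0.0394, SE 0.144), but this call was lost in 15 of 24 fits that left out a library, with values from -0.44 to -0.23. The genes of the 2 enhancer enzymes and of their partner UTX were not called: Kmt2c at 0.17 (95% CI -0.07 to 0.40), Kmt2d at 0.01 (95% CI -0.29 to 0.31) and Kdm6a at -0.10 (95% CI -0.55 to 0.34). Without the 2 libraries of the doubtful embryo label 6 members were called lower and Kmt2a was not (-0.25, limma FDR = 0.208). In that fit Wdr5 was at -0.82, Psip1 at -0.65 and Men1 at -0.29 on the log2 scale (limma FDR = 0.0142 for Men1). The sign of Kdm6a turned there (0.16, limma FDR = 0.574). Cycling markers fell over the same step, from 2454 to 2803 CPM down to 571 to 949.6 CPM in sum, and their part in the result was not tested.

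The same step could be followed within single embryos. Leaving out the doubtful label, 5 embryos had a library in each condition: 1 Kat6a+/+, 1 Kat6a+/- and 3 Kat6a-/-. Psip1, Ash2l, Wdr5, Rbbp5, Kmt2a and Kmt2b were lower in the differentiating library of all 5. Psip1 differed by -1.33 to -0.76 on the log2 scale, and the 3 Kat6a-/- embryos gave -1.01, -1.33 and -0.81, while the Kat6a+/- and Kat6a+/+ embryos both gave -0.76. Kmt2c differed by -0.31, -0.40 and -0.10 in the Kat6a-/- embryos, by -0.071 in the Kat6a+/- embryo and by 0.10 in the Kat6a+/+ embryo. Men1 was lower in 4 of the 5, and Kmt2d in 2 of the 5. These within-embryo differences were not tested on their own. With embryo as a random block in the fit of all 24 libraries, the effect of condition in Kat6a+/+ called 7 members and the interaction called 2, Psip1 (-0.46, limma FDR = 0.0150) and Kmt2c (-0.54, limma FDR = 0.0310).

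Among the 12 other subunits of MLL and SET1 complexes, 1 rose and 5 fell in proliferating Kat6a-/- cells, and 1 rose and 6 fell in differentiating cells, with medians of -0.15 and -0.20. Over all genes tested 30% changed and 13.8% were lower in proliferating cells, and 54.4% changed and 27.7% were lower in differentiating cells. Dpy30, the remaining subunit of the shared core, was at -0.35 (limma FDR = 0.00735) in proliferating and -0.65 (limma FDR = 0.000628) in differentiating cells. Paxip1, which encodes the PTIP subunit of MLL3 and MLL4 complexes, was at -0.33 (limma FDR = 0.0170) in proliferating cells. Wdr82, a subunit of the SET1 complexes, was at -0.63 (limma FDR = 2.49e-05) in differentiating cells. The rises were Hcfc2 in proliferating cells (0.36, limma FDR = 0.00890) and Bod1l, which binds SETD1A, in differentiating cells (0.24, limma FDR = 0.00394). In Kat6a+/- cells 0 of the 12 passed the limma test in either condition.

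Of 5 genes of enzymes that remove H3K4 methylation, 1 fell in proliferating and 2 fell in differentiating Kat6a-/- cells and none rose, against the same 13.8% and 27.7% of all genes lower. Kdm1a, which encodes LSD1, was at -0.35 (limma FDR = 0.00171) and -0.31 (limma FDR = 0.000307) in the 2 conditions, and Kdm1b was at -0.35 (limma FDR = 0.00295) in differentiating cells. Of 10 genes of the DOT1L and elongation complexes, which hold common fusion partners of MLL1, 1 rose and 2 fell in proliferating cells and 2 rose and 2 fell in differentiating cells, no more than the 30% and 54.4% of all genes changed. Mllt3, which encodes the AF9 reader of acetylated lysine, was called in opposite directions: -0.46 (limma FDR = 0.0313) in proliferating and 0.45 (limma FDR = 0.00795) in differentiating cells. The interaction of condition and genotype called 0 of these 10 genes higher and 1 lower. A rise in the Mllt3 effect between conditions was thus not called. Aff1 was at 0.48 (limma FDR = 0.00662) and Mllt10 at -0.35 (limma FDR = 0.0106) in proliferating cells. Mllt1 was at -0.48 (limma FDR = 0.000365), Ccnt2 at -0.30 (limma FDR = 0.0135) and Ell at 0.22 (limma FDR = 0.0322) in differentiating cells.

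Of 11 listed targets of MLL1 and menin, 5 passed the filter on low counts in proliferating and 6 in differentiating cells, and the 5 Hox genes of the list passed in neither. In proliferating Kat6a-/- cells 1 of 5 fell, Cdkn1b, which encodes the cell cycle inhibitor p27 and whose transcription needs menin in endocrine cells (-0.85, limma FDR = 0.000777). In differentiating cells 4 of 6 fell and 1 rose, where 54.4% of all genes changed and 27.7% were lower. Dlx2, a homeobox gene of interneuron precursors, was at -3.11 (limma FDR = 0.00208) and Cdkn2c, which encodes the inhibitor p18, at -1.28 (limma FDR = 1.09e-05). Mecom was the gene that rose, at 2.00 (SE 0.437, limma FDR = 0.00219). The study also describes Meis and Dlx genes in these libraries, so their place in the list is not independent evidence of a direction. The medians of the tested targets were -0.013 and -0.91 on the log2 scale.

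Across the 24 libraries the genes whose log2 CPM was most like that of Men1 were Nudc (Pearson's r = 0.919), Fzr1 (0.917), Mta1 (0.915), Tbc1d16 (0.911) and Phc1 (0.910). With group means removed the order was Trnau1ap (0.855), Dpy30 (0.846), Hnrnpa0 (0.846), Nudc (0.813) and Trp53i13 (0.812). Dpy30 and Men1 thus varied alike between libraries of the same group. For Kmt2a the closest genes over all libraries were Smg1 (0.835), Huwe1 (0.828), Birc6 (0.826), Ino80d (0.819) and Cramp1 (0.816). With group means removed they were Kmt2d (0.887), Or4f47 (0.876), Ino80d (0.874), Herc2 (0.869) and Wdfy3 (0.862). Among pairs of members, Kmt2a with Kmt2d and Psip1 with Ash2l (0.752) were the most alike within groups, and Kdm6a with Ash2l (-0.448) the most opposed. These are descriptions over 24 libraries that share groups, litters and depth.

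**Figure D5:**
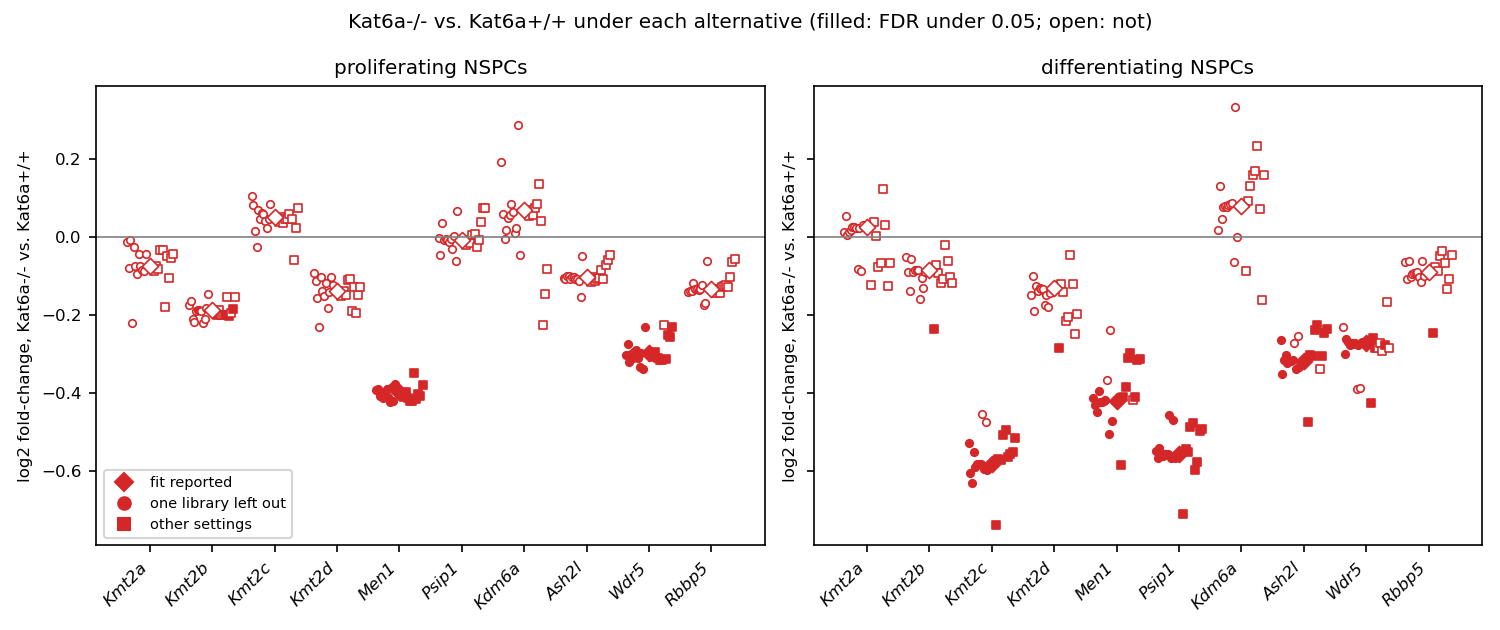
Log2 fold-change in Kat6a-/- vs. Kat6a+/+ of each of the 10 genes in the fit reported (diamond), with each library left out in turn (circles) and under the other settings (squares), filled where the limma, edgeR or DESeq2 FDR was under 0.05. Men1 in proliferating and Psip1 in differentiating cells were filled throughout, while Wdr5 in differentiating cells was filled in part of the fits.

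The calls in differentiating cells leaned on a few libraries. Without replicate 1 of Kat6a-/- the number of all genes called vs. Kat6a+/+ dropped from 7258 to 1212, and without replicate 3 to 939. In both fits Psip1 was the member still called. In proliferating cells leaving out replicate 1 of Kat6a+/+, the deepest library and the 1 with the doubtful embryo label, lowered the count of all genes called from 3686 to 2317 and left both member calls in place. Scaling by library totals without TMM factors moved the median of all genes in differentiating Kat6a-/- vs. Kat6a+/+ cells from -0.016 to -0.17 on the log2 scale, and the share of called genes that were higher from 49.1% to 31.7%. It called 8 of the 10 members lower, where 62.3% of all genes were called and 42.5% were lower. The 8 were Kmt2c (-0.74), Psip1 (-0.71), Men1 (-0.58), Ash2l (-0.47), Wdr5 (-0.42), Kmt2d (-0.28), Rbbp5 (-0.25) and Kmt2b (-0.24), all below the median gene. Rescaling moved the genes together, so their place below the median is not a further result.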

How the data were processed

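The 24 libraries were sequenced on a NextSeq instrument from 200 ng of RNA with a stranded mRNA kit. According to the study's methods the authors aligned reads to mm39 with Rsubread and deposited raw read counts per gene from featureCounts with a RefSeq annotation. The aligner version for these libraries and the strand setting are not given in the sources used here. Each table held 26411 genes, and 2 rows without a symbol (at most 0.0020466% of counts) were kept out of totals. Following the study's methods, 21030 protein-coding genes without Xist and Y-linked genes were filtered with filterByExpr and scaled with TMM factors (edgeR 4.0.16). Proliferating libraries were fitted with limma-voom (limma 3.58.1) and litter as a random block. Differentiating libraries were fitted with limma-trend and quality weights. More genes were tested in both conditions than the study reports, and more were called in differentiating Kat6a-/- vs. Kat6a+/+ cells. The background shares are those of the fits made here. All 24 were fitted together with voom and the litter block for the effect of condition and the interaction. Empirical Bayes was robust, p-values were adjusted by Benjamini-Hochberg over all genes of a fit (FDR), and a call was an FDR under 0.05. CPM used TMM-scaled totals, and FPKM divided CPM by the gene length in the files. Samples were grouped by the genotype and condition in their labels, and each library came from a separate embryo within a condition. Named genes were all 10 members, Kat6a, from each related list up to 2 rises and 2 falls of largest size in Kat6a-/- vs. Kat6a+/+ per condition, and the 5 genes most correlated with Kmt2a and with Men1. Genes that fall outside this rule, Snapc3, Star, Uty, Xist and single markers, were named after their values were seen. The members and lists were chosen with earlier results of these data known. Alternatives were library totals, DESeq2 size factors, no filter on low counts, edgeR's quasi-likelihood test, DESeq2 (1.42.0), litter as a fixed term, a replicate block, a term for Xist, other weights, embryo as the block, each library left out, and 3 choices added after seeing the data (without litter 5063, without both libraries of the doubtful embryo label, and 2 litters merged). The scripts were tested on simulated data with known fold changes, in 100 genes at each size. For Kat6a-/- vs. Kat6a+/+, a log2 change of 0.5 was recovered in 31% of them in proliferating and 12% in differentiating cells. For the interaction it was recovered in 5%. A log2 change of 1 was recovered in 73%, 56% and 44%. Of the calls made, 7.14%, 5.56% and 2% were false. The changed genes were drawn at random from all genes tested, and were far fewer than the genes called in the real data. A change of 0.5 could therefore be missed in such genes, most often in the interaction. The rates were not estimated for the 10 members. Gene positions come from GENCODE vM39 on GRCm39.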

Additional observations from a re-analysis of the deposited data

Results flagged for a closer look

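In each of 60 sets of 4 libraries (10 genes in 6 groups) the lowest and the highest library were compared with the rest, and 8 values stood further from their group than Dixon's 95% critical value allows. Chance flags about 1 in 20 such sets, so a few would be expected without any cause. Men1 was low in differentiating Kat6a-/- replicate 3 at 70.1 CPM (next library 83.6 CPM) and in differentiating Kat6a+/- replicate 4 at 79.99 CPM (next 98.0 CPM). The former is the library that carried 68.98% of the weight of its group. Kmt2a was low in differentiating Kat6a-/- replicate 2 at 142 CPM, and Psip1 was high in differentiating Kat6a+/- replicate 3 at 206 CPM. In Rbbp5 the high libraries were differentiating Kat6a+/- replicate 3 at 46.8 CPM and differentiating Kat6a-/- replicate 1 at 39.2 CPM. Kdm6a was low in proliferating Kat6a-/- replicate 3 at 40.0 CPM, the Xist-low library of that group, and high in differentiating Kat6a+/+ replicate 2 at 74.6 CPM, the Xist-high library of that group.

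The effect of the null genotype differed between conditions for Kmt2c, by -0.53 on the log2 scale, and for Psip1, by -0.46, each tested by the interaction term in limma across all 24 libraries (FDR = 0.0284 and 0.0141). For Psip1 all 35 alternative fits called this difference, and for Kmt2c 34 of 35 did. The proliferating and differentiating libraries were prepared with different RNA kits, and their cycling marker sums differed as well, and the part of either in the interaction was not tested.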

How the results depend on the processing

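In the 80 fits of a member in a comparison, 22 values were called. All 22 kept their sign under every alternative run, and 10 of them were called in every one. Of the 58 values not called, 31 changed sign in at least 1 alternative and 9 were called in at least 1. In the proliferating Kat6a-/- vs. Kat6a+/+ comparison, litter as a fixed term left 1 member (Men1) and 1936 genes called. In Kat6a+/- vs. Kat6a+/+, DESeq2 called 28 genes in proliferating and 8 in differentiating cells, limma-trend with quality weights called 6 in proliferating cells and no filter on low counts 1 in differentiating cells. Comparing proliferating Kat6a-/- with Kat6a+/-, 1 member (Men1) was called without a filter on low counts, by edgeR (951 genes), by DESeq2, with a term for Xist and without litter 5063, which held no Kat6a+/+ library and was left out after seeing the data. In differentiating Kat6a-/- vs. Kat6a+/+ cells, library totals gave 8 members and litter as a fixed term 2 (Kmt2c and Psip1, 1785 genes). The number of genes called there was 3244 with edgeR, 4076 with DESeq2, 3950 with a term for Xist and 3097 without quality weights. Against differentiating Kat6a+/-, library totals gave 8 members, a term for Xist 1 (1605 genes) and litter as a fixed term 0 (386 genes), and the number of genes was 3031 without the filter, 1656 with edgeR, 2621 with DESeq2 and 1616 without quality weights. The interaction kept 1 member (Psip1) with litter as a fixed term. Without the 2 libraries of the doubtful embryo label, left out after seeing the data, it called 905 genes and the same 2 members, and merging the 2 litters whose labels differ in the order of digits, also added after seeing the data, changed no member call. The cause of these changes was not tested.

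With a library left out, the number of members called in Kat6a-/- vs. Kat6a+/+ was 2 to 3 in proliferating cells (2317 to 3996 genes) and 1 to 5 in differentiating cells (939 to 9505 genes), the most without replicate 2 of Kat6a-/-. Against Kat6a+/- it was 1 to 2 (696 to 2200 genes, the fewest without Kat6a-/- replicate 4) and 0 to 6 (243 to 7397 genes, with 0 members without Kat6a-/- replicate 1 or 3). Kat6a+/- vs. Kat6a+/+ gave 0 members, with 0 to 6 genes in proliferating and 0 to 301 in differentiating cells, where the fit without Kat6a+/+ replicate 2 gave 146 and that without Kat6a+/- replicate 3 gave 301. Differentiation in Kat6a+/+ gave 6 to 7 members (9276 to 10292 genes), and the interaction 2 members (1265 to 3520 genes, the most without differentiating Kat6a-/- replicate 2).

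The labels' replicate numbers were checked as a possible pairing. Of 36 same-numbered pairs 12 came from 1 litter, 5 of them within a condition, and 7 had a correlation of deviations above 0.1 (range -0.47 to 0.48), so the numbers as a whole do not pair the libraries. With a replicate block 3 members and 3604 genes were called in proliferating Kat6a-/- vs. Kat6a+/+ cells, the extra member being Kmt2b, and 5 members and 7211 genes in differentiating cells. Against proliferating Kat6a+/- the block gave 1 member and 1625 genes. Differentiation in Kat6a+/+ gave 6 members under the block, without Kmt2a. No other member call changed with it. With 4 libraries a group the intervals were widest for Kdm6a, from -0.48 to 0.80 for the interaction and -0.36 to 0.50 in proliferating Kat6a-/- vs. Kat6a+/+ cells.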
